A study of Mus musculus with 18 samples.

Results

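The contactin and L1 family adhesion genes followed here are 10 genes chosen by symbol, Cntn1, Cntn2, Cntn3, Cntn4, L1cam, Nrcam, Chl1, Nfasc, Ncam1 and Clmp, out of 55416 genes in the deposited count table. All 10 passed the filter on low counts that left 29355 genes for testing. RNA was sequenced from wild-type C57BL/6J mouse embryos at E14.5. Hemispheres of the brain were kept in rotating culture (HERO) for 24 h, either as controls (Ctl) or with human recombinant EPIREGULIN, a secreted ligand of the EGF family, at 50 ng/mL (Epi). From the neocortex 3 populations were then isolated, labelled as radial glia (RG), as intermediate progenitors (IP) and as neurons (N), which gave 6 groups of 3 biological replicates and 18 libraries. The sources used here do not give how the populations were isolated or whether the replicates came from separate embryos, so p-values measure only the spread between these samples, which may be technical.

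The contactins and the L1 family are cell surface proteins built from immunoglobulin and fibronectin type III domains. Contactins are held in the membrane by a lipid anchor, whereas L1cam, Nrcam, Chl1 and Nfasc span it and bind ankyrins on the inside. In the developing cortex these proteins act in axon growth, fasciculation, pathfinding and neuronal migration. Ncam1 is the founding neural cell adhesion molecule and the main carrier of polysialic acid in the brain, and Clmp is a small adhesion protein of the CTX group, related to the coxsackievirus and adenovirus receptor.

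On GRCm39 the members lie on 6 chromosomes, and 7 of them share a chromosome with another member. Cntn2 (chr1:132437165-132470994) and Nfasc (chr1:132492428-132669535) are both on the minus strand, 21433 bases apart, with no other gene of the table between them. On chromosome 6, Cntn3 (chr6:102139616-102550062), Chl1 (chr6:103487547-103727172) and Cntn4 (chr6:105654621-106676271) follow each other, with 6 genes between the first pair and 10 between the second. Clmp (chr9:40597258-40696615) and Ncam1 (chr9:49413436-49710225) have 256 genes between them. Cntn1 (chr15:91949046-92239848), Nrcam (chr12:44375668-44648747) and L1cam (chrX:72897384-72939711) stand alone. All 10 are annotated as protein-coding.

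Libraries held between 15.5 and 34.2 M counted reads. The labels were checked against marker genes by summed CPM, the reads of a gene relative to the size of its library after TMM scaling. Radial glial markers (10 genes) summed to 3858 to 4765 CPM in Ctl RG, 338 to 362 in Ctl IP and 184 to 227 in Ctl N. Neuronal markers (10 genes) summed to 305 to 365 CPM in Ctl RG, 8592 to 9413 in Ctl IP and 8545 to 8809 in Ctl N, so the libraries labelled IP held neuronal transcripts at the level of those labelled N. Intermediate progenitor markers (8 genes) separated IP from N less clearly, with sums of 359.7 to 416 CPM in Ctl RG, 642 to 833 in Ctl IP and 613 to 760.0 in Ctl N. Of these 8, 5 were called higher and 1 lower (Btg2) in IP than in RG, and 6 were lower and 1 higher (Insm1) in N than in IP. Eomes, a defining transcription factor of intermediate progenitors, stood at 122 ± 32.7 CPM in Ctl IP, 17.4 ± 3.27 in Ctl RG and 10.02 ± 3.44 in Ctl N (SD, n = 3). Markers of Cajal-Retzius cells, early-born Reln-secreting neurons of the cortical surface (8 genes), summed to 317 to 407 CPM in Ctl IP against 13.5 to 16.5 in Ctl RG and 49.9 to 78.3 in Ctl N. The part that these marker levels have in the results below was not tested.

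L1cam, whose product guides growing axons, holds a known element in an early intron, and its sequence is shown because L1cam stood about 88.0-fold lower in RG than in N (values below). The element, RE1, is the recognition site of REST, a repressor of neuronal genes outside neurons. A core of 15 letters of that site, with 2 free letters after the first 7, was searched on both strands of GRCm39. It occurred 619 times in the genome and, among the 10 members, only within L1cam, at 2 positions. The matches lie in intron 2 of the canonical L1cam transcript at chrX:72913147-72913161 and chrX:72913117-72913131, with 15 bases between them, and none of the 21 transcripts that span them has an exon there. They lie 26550 and 26580 bases from the start of the gene, taken as the outer end of its annotated span on GRCm39. The promoter windows below end at RefSeq starts instead, so distances there need not be counted from the same point. Of 64330 windows of 42328 bases, the span of L1cam, 0.919% held a match. The stretch at chrX:72913107-72913171, read on the minus strand of the gene, has both matches in capitals.
L1cam intron 2: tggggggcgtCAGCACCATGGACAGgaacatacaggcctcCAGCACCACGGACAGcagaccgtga
A match is a description of letters, not of binding, and nothing about the factor in these cells follows from it.

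Promoter windows of 250 bases before the annotated start were available from RefSeq (GRCm38.p6) for 8 of the 10 members, with 13 windows in all; Ncam1 and Clmp had none. The hexamer CAGATG, searched on both strands, is an E-box form bound by proneural transcription factors. It occurred in 2 of the 13, both overlapping windows of L1cam, and in 14.4% of the 32851 windows of all genes. The windows of L1cam, Chl1 and Cntn2 are shown because these are 3 of the 4 members whose level in RG was furthest below that in N. They lie at chrX:73880835-73881084 on the minus strand for L1cam, chr6:103510626-103510875 on the plus strand for Chl1 and chr1:132542941-132543190 on the minus strand for Cntn2. Each is written in the direction of transcription, with the hexamer in capitals where it occurs.
L1cam: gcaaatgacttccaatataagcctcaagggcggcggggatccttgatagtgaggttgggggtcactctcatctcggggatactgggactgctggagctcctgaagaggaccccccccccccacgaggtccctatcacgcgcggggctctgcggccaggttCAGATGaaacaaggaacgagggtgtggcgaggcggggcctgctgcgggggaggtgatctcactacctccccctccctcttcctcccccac
Chl1: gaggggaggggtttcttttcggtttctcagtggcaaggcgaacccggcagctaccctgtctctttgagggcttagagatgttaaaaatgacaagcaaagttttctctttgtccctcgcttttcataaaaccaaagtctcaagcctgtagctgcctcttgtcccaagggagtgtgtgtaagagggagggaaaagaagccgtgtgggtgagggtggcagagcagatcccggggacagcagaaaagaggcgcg
Cntn2: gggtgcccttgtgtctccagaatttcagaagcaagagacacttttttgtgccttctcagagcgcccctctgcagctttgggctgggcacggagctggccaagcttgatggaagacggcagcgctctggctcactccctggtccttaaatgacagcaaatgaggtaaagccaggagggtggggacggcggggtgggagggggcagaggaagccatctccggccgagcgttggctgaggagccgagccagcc
The L1cam window holds the hexamer 84 bases before the start, and those of Chl1 and Cntn2 hold it nowhere. GC content was 63.2% for L1cam, 52.4% for Chl1 and 61.2% for Cntn2, against a median of 52.4% over all windows.

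The first question was how the adhesion genes differ between the populations of the control cultures. From RG to IP, 9 of the 10 members rose, against a background of 22.7% of genes tested that were called higher, 18.6% called lower and 41.3% called either way (edgeR quasi-likelihood test, Benjamini-Hochberg adjusted p under 0.05 over all genes). The median log2 fold change of the members was 3.60, and that of all genes was -0.06. From IP to N the members split, with 3 higher (Cntn2, Nfasc and Clmp) and 5 lower (Cntn1, Cntn3, Nrcam, Chl1 and Ncam1); 2.6% of all genes were called higher, 7.74% lower and 10.3% either way. Between N and RG, 7 members were higher in N and 2 (Cntn3 and Nrcam) were lower, where 21% of all genes were called higher, 17.7% lower and 38.7% either way. Cntn4 passed the test in none of these comparisons. Libraries of the compared groups did not overlap, in the stated direction, for 24.1% of all genes (IP above RG), 9.67% (N above IP), 12.8% (N below IP), 25.4% (N above RG) and 21.4% (N below RG). These comparisons share control libraries, so their values are set side by side and no overlap of calls is read from them. In bulk samples, fewer cells of a type and less RNA per cell cannot be told apart, and this holds for every level below.

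**Figure D1:**
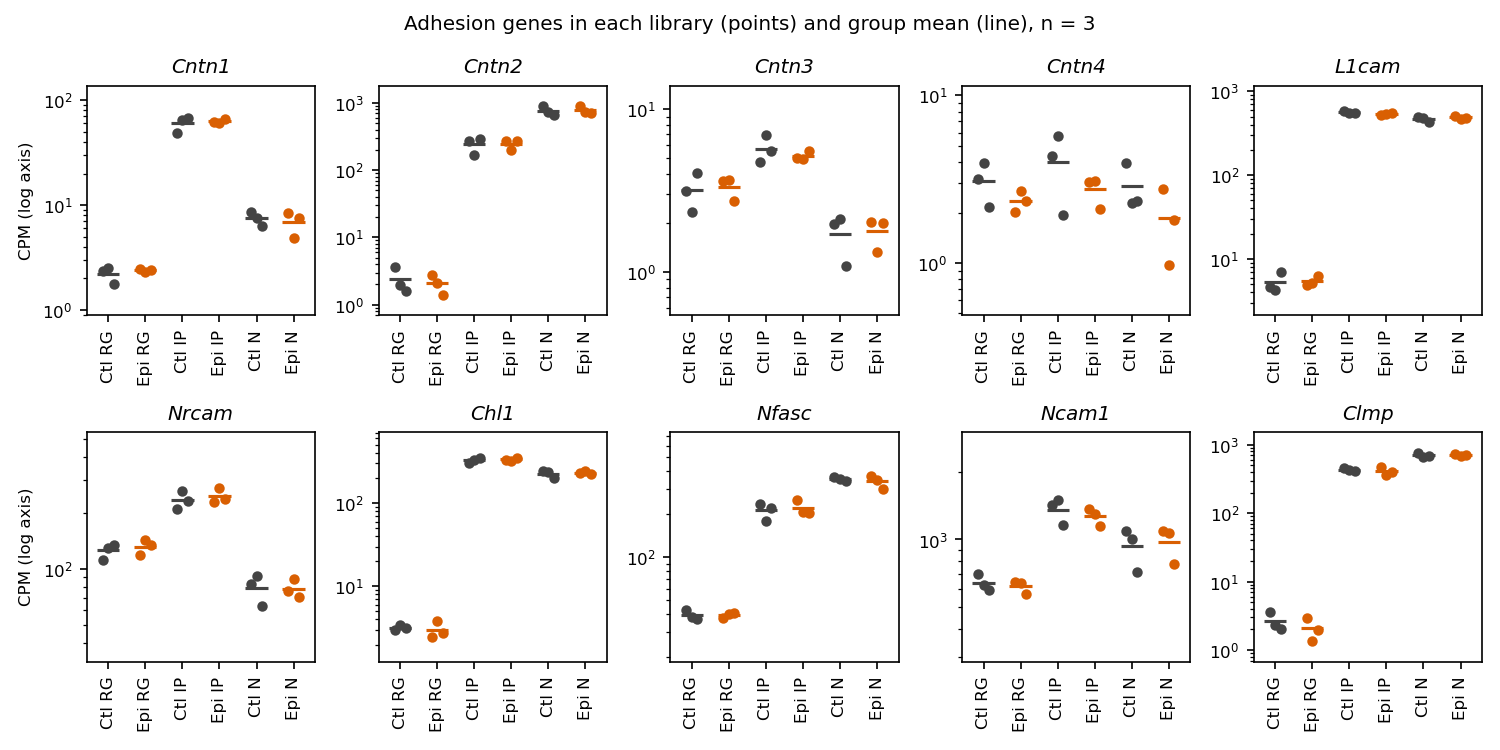
CPM on a log axis of the 10 adhesion genes, 1 panel each, with a point for each of the 3 libraries of the 6 groups. L1cam, Chl1, Clmp and Cntn2 stood between 1.34 and 6.99 CPM in every RG library and at or above 166 in every IP and N library, whereas Cntn3 and Cntn4 stayed under 7 CPM throughout.

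Cntn2, known as TAG-1 and an early marker of growing axons, had the widest range of the contactins. It stood at 3.63, 1.96 and 1.59 CPM in the Ctl RG libraries, from 149, 35 and 52 reads. In Ctl IP it stood at 275, 166 and 289 CPM and in Ctl N at 890.4, 738 and 664. The 3 groups did not overlap, and the lowest N library was above the highest IP library. On the log2 scale the difference was 6.62 ± 0.30 for IP against RG (SE, adjusted p = 3.87e-14) and 1.65 ± 0.23 for N against IP (adjusted p = 1.9e-05), and N stood 308-fold above RG. In the cultures with EPIREGULIN the same comparisons gave 6.89 ± 0.30 and 1.66 ± 0.23.

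Cntn1, a contactin that partners with Cntnap1 at the paranodes of myelinated axons in later life, had its highest level in IP. It was at 2.36, 2.51 and 1.78 CPM in Ctl RG, at 49.2, 64.1 and 68.3 in Ctl IP and at 8.69, 7.54 and 6.31 in Ctl N. Every IP library stood far above every N library, and every N library stood above every RG library. Its log2 fold change was 4.78 ± 0.21 for IP against RG (adjusted p = 1.72e-14), -3.01 ± 0.19 for N against IP (adjusted p = 1.22e-09) and 1.77 ± 0.20 for N against RG (adjusted p = 1.41e-07). The mean of Cntn1 in Ctl N was 12.4% of that in Ctl IP, the lowest such share of the 10 members. The summed Cajal-Retzius markers in Ctl N were at 17.2% of their level in Ctl IP, with 7 of the 8 markers called lower. Interneuron markers (9 genes) were at 48.9%, with 2 called lower. Their sums overlapped, with 11.3 to 165 CPM in Ctl N and 116 to 224 in Ctl IP. The part of either marker set in the result for Cntn1 was not tested.

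Cntn3 and Cntn4, contactins expressed in subsets of neurons, were near the lower end of the range in every population. Cntn3 stood at 3.14, 2.35 and 4.08 CPM in Ctl RG, at 4.71, 6.95 and 5.52 in Ctl IP and at 1.96, 2.11 and 1.08 in Ctl N. These levels came from 42 to 133, 105 to 152 and 25 to 42 reads a library. All N libraries were below all RG libraries, and all RG libraries were below all IP libraries. Its log2 fold change was 0.82 ± 0.26 for IP against RG (adjusted p = 0.0138), -1.74 ± 0.28 for N against IP (adjusted p = 0.000116) and -0.92 ± 0.28 for N against RG (adjusted p = 0.0111). Without Ctl RG replicate 2 or Ctl IP replicate 2 the first adjusted p was 0.0747 or 0.0648, and without Ctl RG replicate 3 or Ctl N replicate 3 the last was 0.0832 or 0.088. In the treated cultures IP exceeded RG by 0.62 ± 0.26 for Cntn3 (adjusted p = 0.0579, and 0.0378 with the replicate number as a block). Gm44189, a model of unconfirmed type on the same strand within Cntn3, held reads equal to 18.24% of those of Cntn3 over all libraries. For 4930587E11Rik, a long non-coding RNA on the other strand, the share was 11.22%. Reads from Cntn3 and from these models cannot be fully told apart.

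Cntn4 was at 3.19, 3.97 and 2.15 CPM in Ctl RG, at 4.35, 5.69 and 1.92 in Ctl IP and at 3.97, 2.27 and 2.33 in Ctl N. The 3 groups overlapped, and the IP libraries alone spanned the values of both other groups. For Cntn4 the log2 fold change was 0.35 ± 0.37 for IP against RG (95% interval -0.41 to 1.12, adjusted p = 0.49) and -0.45 ± 0.37 for N against IP (-1.23 to 0.32, adjusted p = 0.563), and both intervals include 0.

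Among the L1 family, L1cam and Chl1 were both very low in RG and high in IP and N. L1cam was at 4.68, 4.25 and 6.99 CPM in Ctl RG, at 578, 554 and 550.3 in Ctl IP and at 499.5, 479 and 436 in Ctl N. Every RG library was low and every other library high, and the N libraries lay below the IP libraries without overlap. L1cam had a log2 fold change of 6.71 ± 0.17 for IP against RG (adjusted p = 6.25e-18). For N against IP it was -0.25 ± 0.13 (adjusted p = 0.284), which did not pass; 12.8% of all genes had N libraries below the IP libraries without overlap.

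Chl1, the close homologue of L1cam with a role in neuronal positioning, stood at 2.97, 3.46 and 3.13 CPM in Ctl RG, at 305, 326 and 351 in Ctl IP and at 239.9, 234 and 202 in Ctl N. Its RG libraries were uniformly low, and its N libraries were all below its IP libraries. The log2 fold change was 6.69 ± 0.16 for IP against RG (adjusted p = 2.41e-18) and -0.54 ± 0.12 for N against IP (adjusted p = 0.00338). Reads over the introns of Chl1 were also counted under short models of unconfirmed type (TEC) on the same strand. One of these, Gm44439, held 47.8 ± 7.46 CPM in Ctl IP and 44.0 ± 3.98 in Ctl N, against 0.532 ± 0.376 in Ctl RG (SD, n = 3). Reads from Chl1 and from models that overlap it on the same strand cannot be fully told apart. The library type is not stranded, so this also holds for models on the other strand.

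Nfasc, which organises the axon initial segment and nodes of Ranvier, was the member of the L1 family that rose from RG to IP and again from IP to N. It stood at 42.5, 38.4 and 37.1 CPM in Ctl RG, at 235, 178 and 221 in Ctl IP and at 362, 350.5 and 338 in Ctl N. No library of one population reached the range of the next. Nfasc had a log2 fold change of 2.43 ± 0.13 for IP against RG (adjusted p = 4.29e-13) and 0.73 ± 0.12 for N against IP (adjusted p = 0.000158). Its neighbour on chromosome 1, Cntn2, was the contactin that also rose at both steps.

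Nrcam, which acts with Nfasc at initial segments and nodes and in axon guidance, differed from its relatives in being abundant in RG. It was at 112, 130.1 and 135 CPM in Ctl RG, at 210.3, 261 and 231 in Ctl IP and at 82.4, 91.1 and 63.1 in Ctl N. The N libraries were the lowest and the IP libraries the highest, with no overlap. The log2 fold change of Nrcam was 0.90 ± 0.14 for IP against RG (adjusted p = 9.16e-06), -1.57 ± 0.14 for N against IP (adjusted p = 5.89e-08) and -0.67 ± 0.14 for N against RG (adjusted p = 0.000328). Gm48182, a TEC model inside Nrcam on the same strand, was at 18.5 ± 3.03, 31.5 ± 7.76 and 9.96 ± 1.42 CPM in Ctl RG, IP and N.

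Ncam1 was abundant in all 3 populations. It stood at 699, 626 and 597 CPM in Ctl RG, at 1422, 1496 and 1157 in Ctl IP and at 1091, 1004 and 719 in Ctl N. The lowest library of each population was its replicate 3, and RG, N and IP followed each other without overlap. The log2 fold change of Ncam1 was 1.08 ± 0.15 for IP against RG (adjusted p = 2.91e-06), -0.53 ± 0.15 for N against IP (adjusted p = 0.0219) and 0.55 ± 0.15 for N against RG (adjusted p = 0.00483). The call of N against IP was lost without Ctl IP replicate 1 (adjusted p = 0.0613), Ctl IP replicate 2 (0.0866) or Ctl N replicate 3 (0.153), and with upper-quartile factors (0.109). With the replicate number as a block this call was kept, at -0.54 ± 0.09 (adjusted p = 5.46e-05). In the treated cultures the same difference was -0.37 ± 0.15 (adjusted p = 0.13), and with the replicate number as a block it was -0.39 (adjusted p = 0.00207). Within each replicate number, N stood at 0.621 to 0.822 times the IP level of Ncam1 over both conditions.

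Clmp had the largest difference between IP and RG of the 10 members. It was at 3.56, 2.35 and 1.99 CPM in Ctl RG, at 452, 432 and 411 in Ctl IP and at 756, 660.05 and 683 in Ctl N. RG was low in all libraries, and all N libraries were above all IP libraries. Clmp had a log2 fold change of 7.32 ± 0.23 for IP against RG (adjusted p = 1.68e-16) and 0.70 ± 0.17 for N against IP (adjusted p = 0.00704), and N stood 260.1-fold above RG. In the treated cultures these values were 7.59 ± 0.23 and 0.80 ± 0.17.

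The level in RG was set against that in N. Summed neuronal markers in Ctl RG were at 3.82% of their level in Ctl N, a sum to which the abundant markers add most. The median log2 fold change of these 10 markers for N against RG was 5.69, against 8.27 for Cntn2, 8.02 for Clmp, 6.46 for L1cam and 6.15 for Chl1. The corresponding share was 0.313% for Cntn2, 0.376% for Clmp, 1.13% for L1cam and 1.42% for Chl1. It was 11.2% for Nfasc, 29.5% for Cntn1 and 68.3% for Ncam1, and RG exceeded N for Cntn4 (108%, no call), Nrcam (159%) and Cntn3 (186%). These shares are descriptions with no test.

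**Figure D2:**
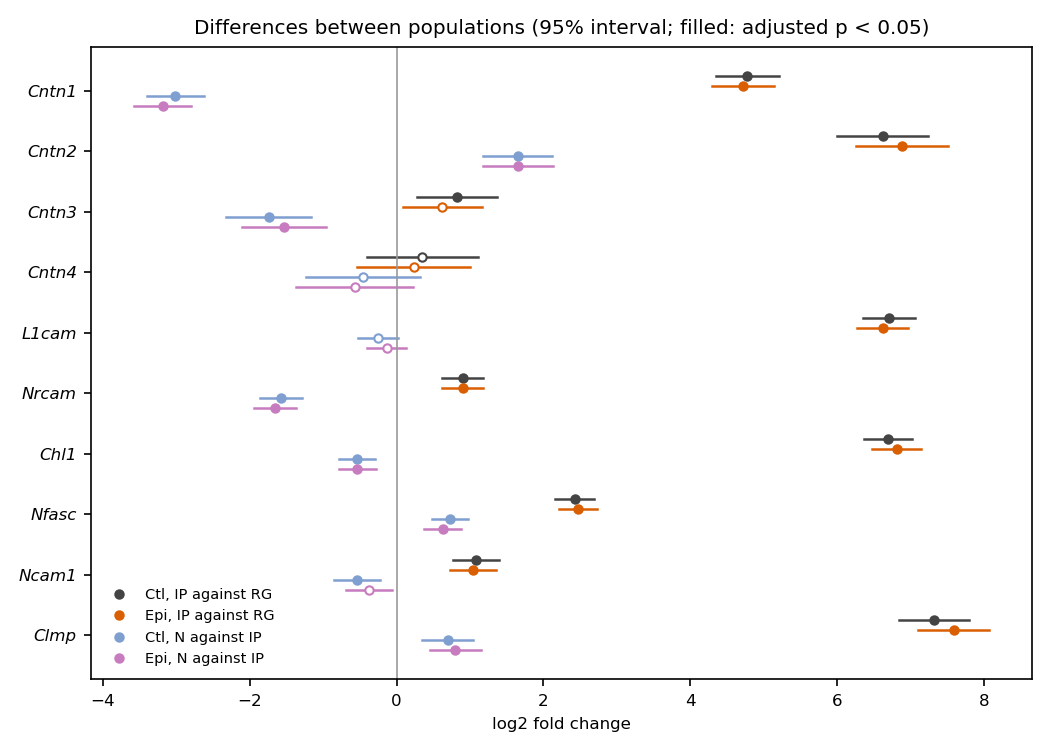
Log2 fold changes of IP against RG and of N against IP for the 10 adhesion genes in Ctl and Epi cultures, with 95% intervals. All members lay at or above 0 in the first step, from 0.35 for Cntn4 to 7.32 for Clmp in Ctl, and in the second step Cntn2, Clmp and Nfasc lay above 0 while Cntn1 lay lowest, at -3.01.

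Levels can be compared between genes only per length, here as CPM per kb of the union of annotated exons (GENCODE vM39). In Ctl RG, Ncam1 led with 72.8 ± 6.00 CPM per kb, followed by Nrcam at 6.55 ± 0.635 and Nfasc at 2.24 ± 0.160 (SD, n = 3), each apart from the next in all libraries. The next places, from L1cam at 0.669 ± 0.186 to Chl1 at 0.226 ± 0.0178, were held by genes whose neighbours in the order overlapped, and Cntn1 was lowest at 0.130 ± 0.0228. In Ctl IP the order was Ncam1 at 154 ± 20.2, Clmp at 81.0 ± 3.84 and L1cam at 70.7 ± 1.89, all apart. Cntn2 and Chl1 overlapped at 25.1 ± 6.95 and 23.2 ± 1.61 CPM per kb, as did Nrcam and Nfasc at 12.2 ± 1.34 and 12.0 ± 1.70. Cntn1, Cntn3 and Cntn4 closed the order at 3.55 ± 0.589, 0.780 ± 0.154 and 0.383 ± 0.183. In Ctl N, Clmp stood first at 131 ± 9.37 CPM per kb, but its libraries overlapped those of Ncam1 at 107 ± 22.1, which in turn overlapped those of Cntn2 at 78.9 ± 11.9. L1cam (59.5 ± 4.11), Nfasc (19.9 ± 0.689), Chl1 (16.0 ± 1.44) and Nrcam (4.11 ± 0.748) followed in separate ranges. Exon unions count every annotated exon of a gene, so the level per kb of genes with many rare exons, such as Nrcam with 149 transcripts, is a lower estimate.

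**Figure D3:**
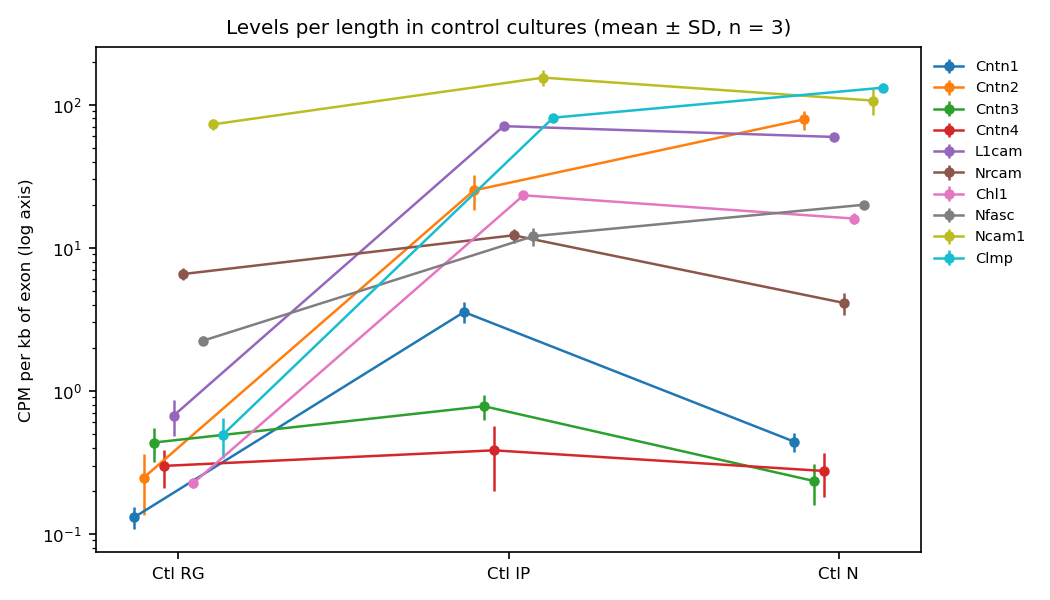
CPM per kb of exon union on a log axis for the 10 adhesion genes in Ctl RG, Ctl IP and Ctl N. Points are group means with bars of ± SD (n = 3), and a line joins the populations for each gene. Ncam1 led in RG at 72.8 and in IP at 154, whereas Clmp (131), Ncam1 (107) and Cntn2 (78.9) shared the upper end in N.

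The second question was whether EPIREGULIN changed these genes. None of the 10 members passed the test in RG, IP or N, nor over the mean of the 3 populations, and 0% of the 29355 genes tested did so in any of these comparisons (edgeR, with 0 also by DESeq2, limma voom and the fit with a replicate block). At an unadjusted p under 0.05 there were 478 of the 29355 genes in RG, 535 in IP, 752 in N and 841 over the mean. Of the members, 0, 0, 0 and 1 were at that level. A share of 0.05 of the genes is expected there without any effect if the model of the fit holds, and each of these gene counts was below it. The main fit leaves out the pairing by replicate number, which can lower such counts, so nothing is concluded from the shortfall. With the replicate block the counts were 783, 952, 1211 and 1483 genes, and 0, 0, 0 and 1 of the members. The blocked gene count over the mean was above that share, and those in RG, IP and N were below it. The log2 fold changes of the members ranged from -0.40 to 0.12 in RG, from -0.51 to 0.07 in IP and from -0.63 to 0.07 in N. Their 95% intervals lay within -1.16 to 0.60, -1.28 to 0.48 and -1.44 to 0.67. For L1cam the interval in IP was -0.34 to 0.20, and that in N was -0.22 to 0.32. For Ncam1 in RG it was -0.36 to 0.26. The difference of the treatment effect between IP and RG, or between N and IP, passed for none of the members and for none of all genes, with 442 and 512 genes at an unadjusted p under 0.05.

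The member at an unadjusted p under 0.05 was Cntn4. Its Epi libraries held 2.01, 2.67 and 2.34 CPM in RG, 3.04, 3.10 and 2.10 in IP and 2.78, 0.973 and 1.80 in N. They were lower on average than Ctl in each population but overlapped Ctl in each. The log2 fold change over the 3 populations was -0.51 ± 0.22 (unadjusted p = 0.0273, adjusted p = 1). With the replicate number as a block it was -0.49 ± 0.19 (unadjusted p = 0.0157, adjusted p = 0.966). L1cam was at 527, 532 and 544 CPM in Epi IP, below all 3 Ctl IP libraries, with a log2 fold change of -0.07 ± 0.13 (adjusted p = 1); 2.8% of all genes lay below Ctl in IP without overlap.

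**Figure D4:**
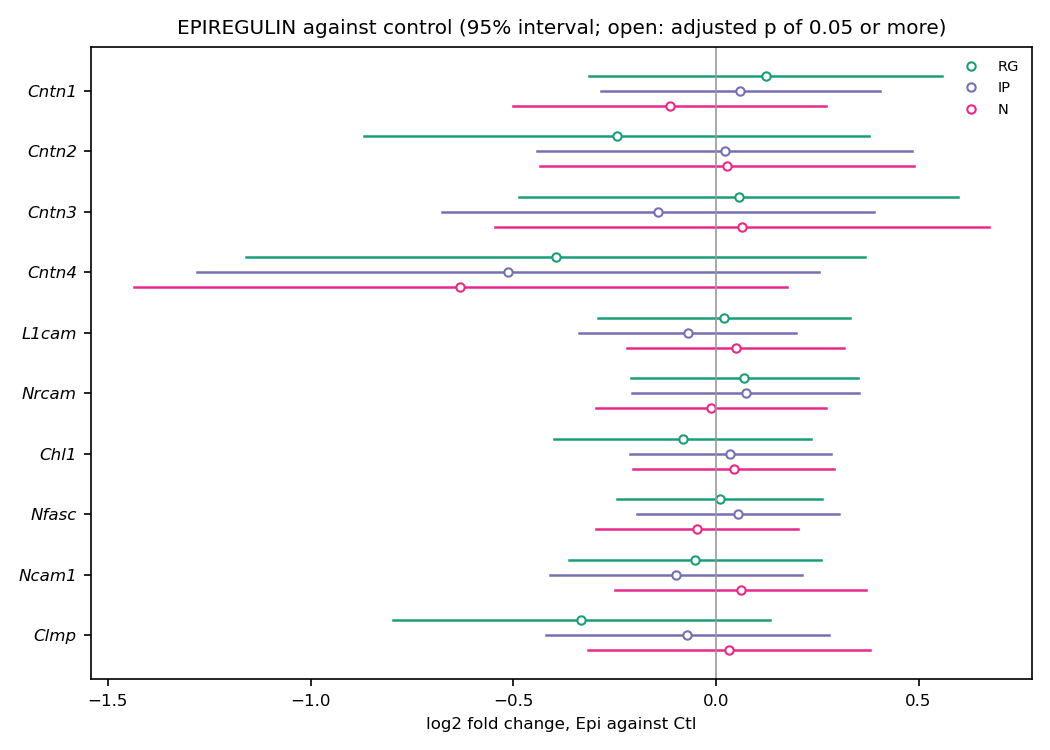
Log2 fold change of Epi against Ctl with 95% intervals for the 10 adhesion genes in RG, IP and N. All point estimates lay between -0.63 and 0.12, every interval includes 0, and the intervals of Cntn4 are the widest.

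In cultures with EPIREGULIN the group means of each member had the same order over the populations as in the controls. Of the 10 members, 8 rose from RG to IP (background 23.2% higher, 19.6% lower and 42.7% either way), 3 rose and 4 fell from IP to N (2.8% higher, 8.16% lower, 11% either way), and 7 were higher and 2 lower in N than in RG (21.4% higher, 18.3% lower, 39.7% either way). The calls that the treated cultures lacked were those of Cntn3 from RG to IP and of Ncam1 from IP to N. Cntn1 went from 62.0, 60.8 and 66.5 CPM in Epi IP to 8.37, 4.91 and 7.55 in Epi N, a log2 fold change of -3.18 ± 0.19 (adjusted p = 6.06e-10).

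For each member, the 3 genes of most similar course were taken by Pearson correlation of log2 CPM over the 18 libraries, among 10027 genes whose log2 CPM averaged 3 or more. The 18 points share 3 populations, and genes with a large gap between RG and the other populations have high values with each other even where IP and N are in another order, as for L1cam and Cntn2 (r = 0.971). Clmp was most like Neurod2 (r = 0.9994), Dscam and Nos1. L1cam was most like Soga3 (0.9986), Dcx and Ank3, of which Ank3 encodes ankyrin-G, an intracellular partner of the L1 family. Chl1 was most like Tnik, Pcyt1b and Hecw1, and Nfasc most like Nav2, Cabp1 and Abcc8. Cntn2 was most like its genomic neighbour Nfasc (0.996), then Abcc8 and Nedd4l. Cntn1 was most like Dock9 (0.992), Tle4 and Adora1, Nrcam most like Cdk14 (0.986), Timp2 and Adamts20, and Ncam1 most like Grin2b (0.983), Kif3a and Cacng4. Cntn3 reached 0.951 with Dtd1, followed by Lpl and Cadm2, and Cntn4 reached only 0.678 with Polr3a, followed by Mmp21 and Hadhb. Among the members themselves r was 0.997 for L1cam and Chl1, 0.989 for L1cam and Clmp, 0.0901 for L1cam and Nrcam and -0.25 for Cntn3 and Nfasc.

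Relatives and partners of the members were read from the same fit. Counts are those of the Ctl comparisons, beside 22.7% of all genes called higher and 18.6% lower from RG to IP, and 2.6% and 7.74% from IP to N. Of 10 further contactins, contactin-associated proteins and Ncam2, 6 rose from RG to IP (median log2 fold change 1.84) and none was higher in N than in IP, where 5 were lower (median -0.45). Cntn5, a contactin like Cntn1 in having its highest level in IP, was at 1.18 ± 0.337, 9.93 ± 0.934 and 2.06 ± 0.848 CPM in Ctl RG, IP and N. Cntnap4, a transmembrane partner of contactins, was at 5.01 ± 1.12, 28.9 ± 2.34 and 4.95 ± 1.52. Of 8 relatives of Clmp in the CTX and JAM groups, 1 rose (Cxadr) and 3 fell (Jam2, Igsf11 and Jam3) from RG to IP, with a median of -0.49; 4 of 8 called is near the 41.3% of all genes called either way. In Epi, 2 rose and 3 fell. Jam2 stood at 72.2 ± 11.7 CPM in Ctl RG and 5.01 ± 0.785 in Ctl IP (log2 fold change -3.85 ± 0.17), the opposite direction to Clmp.

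Of 18 other adhesion genes of the immunoglobulin superfamily, 13 rose and 3 fell from RG to IP, and 2 rose and 8 fell from IP to N. In Epi the counts were 14 and 3, then 3 and 8. Dscam, a homophilic receptor of growing axons, was at 3.13 ± 0.994, 115 ± 5.09 and 170.4 ± 4.69 CPM in Ctl RG, IP and N. Opcml, a lipid-anchored IgLON protein, was at 3.21 ± 0.0745, 297 ± 60.8 and 41.8 ± 16.5, and Cadm1, a synaptic adhesion protein, fell from 1068 ± 305 in IP to 195 ± 55.1 in N. Mcam fell by 4.67 ± 0.23 on the log2 scale from RG to IP.

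Of 20 extracellular partners, 18 were tested; 8 rose and 6 fell from RG to IP, and 4 rose and 7 fell from IP to N. In Epi, 8 rose and 7 fell at the first step and 4 rose and 7 fell at the second. Nrp1, the semaphorin receptor that forms a complex with L1cam, stood at 10.6 ± 0.800 CPM in Ctl RG, 147 ± 16.2 in Ctl IP and 601 ± 76.9 in Ctl N, with log2 fold changes of 3.80 ± 0.15 and 2.03 ± 0.13. Tnc, a matrix ligand of contactins, went the other way, from 329 ± 35.6 in RG to 8.19 ± 1.43 in IP and 2.25 ± 0.284 in N. Vcan, a matrix proteoglycan, was at 36.0 ± 3.14, 202 ± 4.20 and 74.3 ± 8.18 CPM in Ctl RG, IP and N.

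Of 19 intracellular partners, 14 rose and 4 fell from RG to IP, with a median of 1.90 against -0.06 over all genes. Ank3 rose by 5.56 ± 0.12, Crmp1 by 5.45 ± 0.15 and Dcx by 6.51 ± 0.19 on the log2 scale, whereas Ezr, a link between membrane proteins and actin, fell by 1.37 ± 0.13. From IP to N, 2 of the 19 rose and 5 fell, with a median of -0.18. In Epi the counts were 14 and 4, then 4 and 4. Dcx, which binds microtubules and Nfasc, was at 797 ± 105 CPM in Ctl IP and 807 ± 21.7 in Ctl N (adjusted p = 0.972). Of 6 genes of polysialylation and shedding, 5 rose and Adam17, a sheddase of L1cam, fell by 1.00 ± 0.14 from RG to IP; 0 of 6 were called from IP to N. St8sia2 and St8sia4, the enzymes that place polysialic acid on Ncam1, rose from 54.0 ± 5.13 to 153 ± 33.8 and from 19.6 ± 1.97 to 44.3 ± 16.3 CPM, and St8sia3, of the same family, from 1.41 ± 0.720 to 66.7 ± 11.2.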

How the data were processed

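The authors deposited 1 table of unnormalised read counts, with a row per gene and a column for each of the 18 libraries. Per the submitters' processing notes, reads went through bcl2fastq 2.20.0, cutadapt 2.6 and featureCounts 2.0.1 with the build GRCm39. The sources used here name no aligner. Per the labels' protocols, RNA came from a kit for fixed tissue and libraries from SmartSeq2, which keeps no strand and no molecular identifiers, so PCR copies are counted as reads. The table had 55508 rows, of which 92 were spike-ins (at most 3.05e-05% of a library's counts) that were left out. Its headings for strand and gene type were exchanged, as the values showed. Groups came from the titles and replicate numbers from the descriptions. In the characteristics the population and treatment stood under other tags, with values that matched the titles.

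In R 4.3.3, filterByExpr of edgeR 4.0.16 left 29355 genes, and TMM factors scaled the libraries. All 18 entered 1 quasi-likelihood fit of 6 group means, with two-sided contrasts and Benjamini-Hochberg adjustment over all genes tested, at a threshold of 0.05. In simulated counts of Epi against Ctl in RG, 200 of 28537 genes were changed. The fit recovered 81% of genes changed 2-fold and 99% of those changed 4-fold, and called 8 unchanged genes. These rates pool the changed genes whatever their level and hold for the simulated counts only. Recovery was not measured separately for weakly expressed genes or at the spread of the real libraries, so the rates do not bear on the treatment result there. CPM are means ± SD, and log2 fold changes are ± SE.

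The 10 members, the gene lists, the motifs and the comparisons were chosen with earlier results of these data known. All members are named whatever their outcome. Of other lists at most 4 genes per comparison are named, those called with the smallest p, and for likeness the 3 genes of highest correlation. Coordinates are on GRCm39 as in the table; promoter windows are RefSeq's on GRCm38.p6, matched by symbol for 8 of 10 members.

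The settings varied were the scaling (RLE or upper-quartile factors), the filter (none), the tool (DESeq2 1.42.0 or limma voom, limma 3.58.1), the samples in the fit (only the compared groups), the replicate number as a block, and leaving out each library. The labels do not say what a shared number means. Pairing was checked on 11210 genes after removing group means. Between Ctl and Epi, the deviations of same-number libraries had correlations of 0.187 to 0.619 for RG, 0.160 to 0.600 for IP and 0.198 to 0.677 for N. Between populations of a condition the lowest was 0.0946, for Ctl RG and Ctl N, and all other compared pairs were above 0.1. Over all pairs of groups, correlations were 0.00682 to 0.677 for same-number libraries and -0.653 to 0.229 for other pairs of libraries. The main fit leaves this pairing out, so its SE and intervals are those of unpaired groups. Values with the block are given where it changed a call and in some other comparisons.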

Additional observations from a re-analysis of the deposited data

How the results depend on the processing

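All population calls of Cntn1, Cntn2, L1cam, Nrcam, Chl1, Nfasc and Clmp kept their direction and their side of the threshold under each of the 25 alternatives. The replicate block moved the count of all genes called from 3035 to 4652 for Ctl N against Ctl IP and from 3216 to 4917 for Epi N against Epi IP. It changed the calls of Cntn3 in Epi IP against Epi RG and of Ncam1 in Epi N against Epi IP, and no other member's call. Leaving out each library in turn gave 8 to 9 members called for Ctl IP against RG, 7 to 8 for Ctl N against IP, 8 to 9 for Ctl N against RG, 8 to 9, 7 and 8 to 9 for the same comparisons in Epi, and 0 for every treatment and interaction comparison. All genes called ranged from 10836 to 12086, 2229 to 3066 and 10132 to 11633 in Ctl, from 11098 to 12766, 2408 to 3426 and 10364 to 11897 in Epi, and were 0 for treatment. Cntn3 in Epi N against Epi RG lost its call without Epi N replicate 2 (adjusted p = 0.0717). Cntn3 in Epi IP against Epi RG passed with DESeq2 (0.0346), limma voom (0.0324), only the compared groups (0.034) and without Ctl N replicate 3 (0.0384), within a range of 0.0324 to 0.191. Ncam1 in Ctl N against Ctl IP had an adjusted p of 0.105 with only the compared groups, and in Epi N against Epi IP of 0.0489 with DESeq2. Upper-quartile factors moved the median log2 fold change of all genes by -0.11 for Ctl IP against RG, -0.10 for Epi IP against RG and 0.11 for Epi N against IP. They raised the share of higher calls in N against IP from 25.1% to 37.1% in Ctl and from 25.6% to 43.0% in Epi. The cause of these differences was not tested. With 3 libraries a group, the SE of the treatment effect of Cntn4 was 0.37 in RG, where that of Chl1, at a like CPM, was 0.15.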
